A study of Mus musculus with 18 samples.

Results

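The AP-1 family genes are the 9 genes Fos, Fosb, Fosl1, Fosl2, Jun, Junb, Jund, Batf and Atf3, and the occupancy of their surroundings by PU.1 and by the C/EBP proteins α and β was followed while pre-B cells were converted into induced macrophages (iMΦ). Each locus was the mm9 span of the gene in GENCODE vM1 with 30 kb on either side, and the 9 loci were taken from 22367 protein-coding loci. Sites of enriched reads were called in each library and merged across libraries, and 119 of the 98552 merged sites of the genome lay at these loci. The rule for the loci uses gene positions and no read value.

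The cells were C10, 1 line derived from the mouse pre-B cell line HAFTL, and all groups carried the same C/EBPα-estrogen receptor fusion with a GFP tag. β-estradiol (β-Est) brings the fusion into the nucleus, induced cells were grown with IL-3 and CSF-1, and control cells received the solvent ethanol. Chromatin immunoprecipitation and sequencing (ChIP-seq) was done for C/EBPα before induction (0 hpi), at 10, 30 and 60 min and at 3, 12, 24 and 48 hr post-induction (hpi), and for C/EBPβ and PU.1 at 0, 3, 12, 24 and 48 hpi. Each factor had a single library at each time, so the 18 libraries were set side by side without a test between them, and no control library was used here. Values are scaled reads, which are the reads within 100 bp of a site's centre per 10000000 reads of the library, and the 95% intervals (exact Poisson for reads, exact binomial for ratios and shares) cover counting error only. C/EBPα libraries held between 5970869 and 24917810 reads, those of C/EBPβ between 2903580 and 5844202, and those of PU.1 between 6575348 and 11349746, and a site needed between 7 and 15 reads depending on this depth. The C/EBPα libraries of 10, 30 and 60 min were the 3 with longer reads from another sequencer, and there the sequencer and the time point cannot be told apart. The libraries hold no RNA, so neither expression of the 9 genes nor the identity of the cells was examined.

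AP-1 is a family of dimers of basic leucine zipper (bZIP) proteins. Jun proteins pair among themselves or with Fos proteins, whereas Fos proteins need a Jun partner, and the dimers bind TGAGTCA or, less often, the cyclic AMP response element TGACGTCA. Fos, Fosb, Jun and Junb are immediate-early genes, switched on within minutes by mitogens and stress through MAP kinases, and Atf3 is a stress-induced repressor or activator of the same bZIP class. Batf pairs with Jun proteins and acts with interferon regulatory factors in lymphocytes. In macrophages AP-1 sits on enhancers next to PU.1, an ETS factor, and C/EBP proteins, which are themselves bZIP factors.

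The sequences below are the 151 bases around the centres of 12 sites on which the results turn, read from the mm9 genome on the plus strand. Capitals mark the letters searched on both strands: TTGCNNAA for C/EBP, GAGGAAGT for PU.1, TGAGTCA for AP-1, TGACGTCA for the cyclic AMP response element, and TGATGCAA, a composite C/EBP-ATF element that shares the letters GCAA with the C/EBP site and was added after the data had been seen. The first pair from Fos held C/EBPα in no library after 3 hpi and the next pair to the last time point, Fosb 8.79 kb upstream held PU.1 without C/EBP, and the others held C/EBPα early and late.
Fos 26.7 kb upstream (chr12:86788107-86788257): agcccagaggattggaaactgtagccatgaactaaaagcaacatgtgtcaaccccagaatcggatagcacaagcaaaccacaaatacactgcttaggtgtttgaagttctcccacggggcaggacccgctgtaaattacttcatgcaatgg
Fos 26.1 kb upstream (chr12:86788627-86788777): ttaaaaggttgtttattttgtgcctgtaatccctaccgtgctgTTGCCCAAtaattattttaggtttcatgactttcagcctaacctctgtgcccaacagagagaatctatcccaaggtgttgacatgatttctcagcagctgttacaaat
Fos 4.97 kb upstream (chr12:86809795-86809945): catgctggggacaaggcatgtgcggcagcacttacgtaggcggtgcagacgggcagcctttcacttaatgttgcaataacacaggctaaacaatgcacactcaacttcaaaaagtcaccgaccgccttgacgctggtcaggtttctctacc
Fos 16.7 kb downstream (chr12:86831442-86831592): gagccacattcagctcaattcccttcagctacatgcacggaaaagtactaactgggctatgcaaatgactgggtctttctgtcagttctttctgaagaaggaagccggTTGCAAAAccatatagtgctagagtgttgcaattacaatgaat
Fosb 8.79 kb upstream (chr7:19904110-19904260): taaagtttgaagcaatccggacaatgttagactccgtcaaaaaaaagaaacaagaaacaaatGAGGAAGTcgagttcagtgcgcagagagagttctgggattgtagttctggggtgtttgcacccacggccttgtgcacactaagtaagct
Fosl2 2.19 kb downstream (chr5:32440963-32441113): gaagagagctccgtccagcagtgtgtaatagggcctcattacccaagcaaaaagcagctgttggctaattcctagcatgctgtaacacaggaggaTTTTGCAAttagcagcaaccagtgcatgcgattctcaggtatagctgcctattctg
Fosl2 3.09 kb downstream (chr5:32441864-32442014): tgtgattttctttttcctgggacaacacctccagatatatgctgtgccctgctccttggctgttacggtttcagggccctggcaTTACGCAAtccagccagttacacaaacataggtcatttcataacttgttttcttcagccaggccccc
Junb 1.09 kb upstream (chr8:87503629-87503779): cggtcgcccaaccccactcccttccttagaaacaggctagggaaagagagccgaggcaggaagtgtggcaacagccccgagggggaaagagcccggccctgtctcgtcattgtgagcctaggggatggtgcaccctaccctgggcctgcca
Junb 6.80 kb upstream (chr8:87509342-87509492): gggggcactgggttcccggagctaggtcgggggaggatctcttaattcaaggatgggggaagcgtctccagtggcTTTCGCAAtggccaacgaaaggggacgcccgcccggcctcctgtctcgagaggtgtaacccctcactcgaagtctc
Batf 27.1 kb upstream (chr12:87000474-87000624): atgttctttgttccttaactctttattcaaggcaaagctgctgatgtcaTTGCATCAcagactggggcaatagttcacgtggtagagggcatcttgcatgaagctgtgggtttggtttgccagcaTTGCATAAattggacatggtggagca
Atf3 18.1 kb upstream (chr1:193025205-193025355): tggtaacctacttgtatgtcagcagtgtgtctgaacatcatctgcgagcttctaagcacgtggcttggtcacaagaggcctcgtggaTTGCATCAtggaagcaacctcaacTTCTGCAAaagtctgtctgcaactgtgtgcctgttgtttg
Atf3 17.0 kb downstream (chr1:192990187-192990337): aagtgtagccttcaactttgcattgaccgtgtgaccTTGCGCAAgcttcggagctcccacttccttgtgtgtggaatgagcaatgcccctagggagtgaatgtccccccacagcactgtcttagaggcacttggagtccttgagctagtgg
The site at the Atf3 start lies in transcribed sequence, and 30 bases around its composite element are shown in the sense of the gene, which is on the minus strand.
Atf3 51 bp downstream (chr1:193007134-193007163): tttaaaaggggTGATGCAAcgcgctcccag

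PU.1 was bound at all 9 AP-1 loci in pre-B cells and at every later time point, whereas C/EBPα was called at all of them by 60 min and at fewer before. A C/EBPα site was called at 4 of the 9 loci at 0 hpi (Fosb, Fosl2, Junb and Atf3), at 7 at 10 min, at 8 at 30 min and at all 9 at 60 min, and at 8 of them in each library from 3 to 48 hpi. With a read threshold 1.5 times higher, 2 of the 9 loci had a C/EBPα site at 0 hpi, and the loci held 1 C/EBPβ site at that time in place of 5. The sites of the whole genome at 0 hpi then fell from 2584 to 971 for C/EBPα and from 1000 to 313 for C/EBPβ. The shares of all loci were not computed at that threshold. Among all protein-coding loci the share with a C/EBPα site was 16.2% at 0 hpi, 32.8% at 10 min, 41.3% at 30 min, 50.5% at 60 min, 52.2% at 3 hpi, 43.0% at 12 hpi, 37.0% at 24 hpi and 34.8% at 48 hpi, and 65.8% had one at some time. C/EBPβ sites were called at 4, 3, 5, 6 and 7 of the AP-1 loci at 0, 3, 12, 24 and 48 hpi, beside 6.63%, 23.2%, 16.5%, 27.6% and 46.4% of all loci. Jun and Jund had no C/EBPβ site in any library. For PU.1 the corresponding shares of all loci were 67.1%, 68.6%, 78.1%, 72.4% and 70.5%. The median AP-1 locus measured 67.3 kb and the median of all loci 75.4 kb, with Fosl2 (81.4 kb) and Batf (82.4 kb) above that median, and the part of locus length in these shares was not tested.

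**Figure D1:**
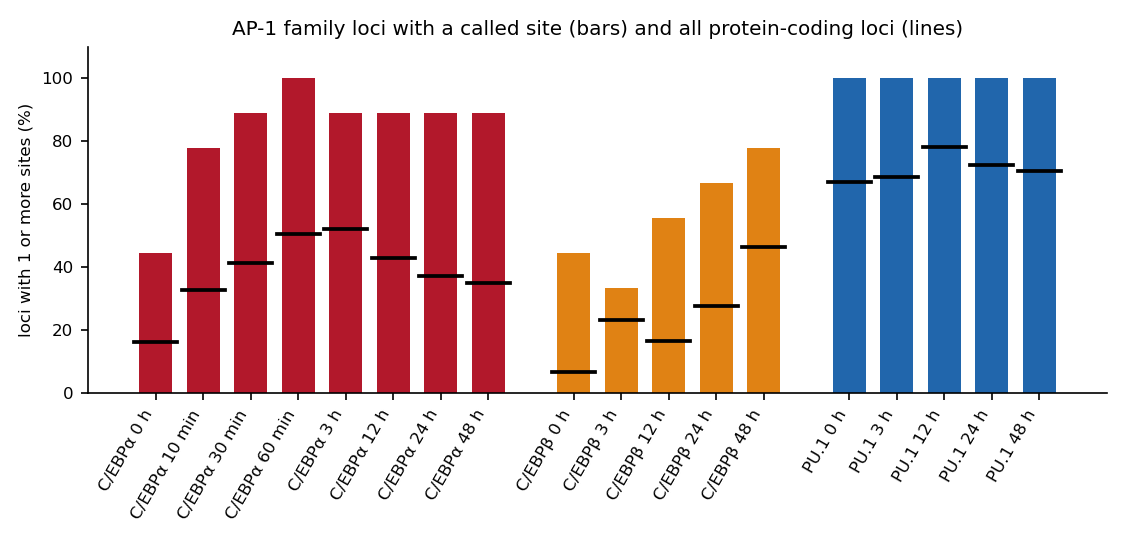
Share of the 9 AP-1 family loci with at least 1 called site (bars, in %) in each of the 18 libraries, with the share of all 22367 protein-coding loci as a black line. The bars of all 3 factors stand above the lines in every library, and the PU.1 bars are at 9 of 9 loci throughout.

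At the AP-1 loci C/EBPα was called at 51 merged sites, C/EBPβ at 21 and PU.1 at 82. The nearest protein-coding gene start was that of an AP-1 gene at 36, 17 and 54 of these, and the others lay nearer to the start of another gene. Of the 119 sites 65 had PU.1 alone, 26 had C/EBPα alone, 8 had both C/EBP factors, 10 had all 3 factors, 7 had C/EBPα with PU.1, and 3 had C/EBPβ alone. C/EBPβ was called at 35.3% of the C/EBPα sites, beside 35.5% in the genome. The other overlaps were not counted over the genome, so no background stands beside them. The loci held 6, 17, 21, 30, 24, 28, 18 and 15 C/EBPα sites in the 8 libraries in order of time, 5, 7, 7, 12 and 20 C/EBPβ sites and 35, 41, 63, 55 and 43 PU.1 sites in the 5 libraries of each. The mean number per protein-coding locus was 0.206, 0.604, 0.990, 1.43, 1.44, 0.927, 0.704 and 0.615 for C/EBPα, 0.0870, 0.399, 0.227, 0.447 and 1.01 for C/EBPβ and 2.10, 2.38, 4.15, 3.25 and 2.89 for PU.1, with 2.58, 1.20 and 5.22 over all libraries. The AP-1 loci had most PU.1 sites at 12 hpi and most C/EBPβ sites at 48 hpi, as did all loci. The C/EBPα counts at 60 min and 12 hpi were close to each other although the 12 hpi library was the smallest of its factor, and these counts are not corrected for depth.

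Summed over the sites at which each factor was called, C/EBPα had 254 scaled reads at 0 hpi, 355 at 10 min, 1054 at 30 min, 991 at 60 min, 988 at 3 hpi, 1187 at 12 hpi, 836 at 24 hpi and 679 at 48 hpi. The step from 10 to 30 min was the steepest, and the log2 ratio of 48 over 0 hpi was 1.42. C/EBPβ went from 177 at 0 hpi through 299, 489 and 774 to 1196 at 48 hpi, a log2 ratio of 2.75. These sums run over sites chosen by calls in any library, of which 6 of 51 were called at 0 hpi for C/EBPα and 5 of 21 for C/EBPβ, with 20 of the 21 called at 48 hpi, so the choice of sites largely fixes the direction of both ratios, which are given as descriptions. PU.1 had 1635, 1865, 2606, 1939 and 1755 scaled reads, with its highest value at 12 hpi and a log2 ratio of 48 over 0 hpi of 0.10 (95% interval -0.0046 to 0.21). Of its 82 sites 63 were called at 12 hpi and 35 at 0 hpi, and 13 were called at 12 hpi only. The choice of sites thus also favours the 12 hpi value, which is given as a description.

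Site by site, a change was counted when it was at least 2-fold and the higher library had at least 3 reads. By this measure 23 of the 51 C/EBPα sites had more scaled reads at 48 than at 0 hpi and 3 had fewer, while among all C/EBPα sites of the genome these shares were 36.0% and 11.8%. Some of the 23 rest on few reads, such as Fos 1.88 kb upstream (1 and 3 reads at 0 and 48 hpi) and Fosl1 39 bp upstream (3 and 7), and counting error was not part of the measure. For C/EBPβ 20 of 21 sites were higher and 1 lower by this measure, beside 83.6% and 2.38% in the genome. For PU.1 26 of 82 were higher and 12 lower, beside 30.5% and 20.4%. The same choice by calls applies to the sites of the genome, and the PU.1 count in the higher direction was close to its background share.

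The 51 C/EBPα sites fell into 16 called only up to 60 min (with or without 3 hpi), 17 called both in that period and from 12 hpi on, 16 called only from 12 hpi on (with or without 3 hpi), and 2 called at 3 hpi alone. The late sites were 6 with a read threshold 1.5 times higher and 5 when calls in 2 or more C/EBPα libraries were asked for. The genome shares that follow are for the main setting only and were not computed under the alternatives. Of all 37720 C/EBPα sites of the genome, 45.9% were early, 24.0% early and late, 17.3% late and 12.7% at 3 hpi alone. The deepest C/EBPα libraries were those of 10 and 60 min, and thinning all C/EBPα libraries to the smallest left 9 early sites. C/EBPα was called in a single library at 19 of the 51 sites, close to the 39.3% of C/EBPα sites in the genome, and 7 of the 19 were called at 12 hpi only and 4 at 60 min only. Leaving the 12 hpi library out left 7 late sites, and that library also had the highest share of C/EBPα reads within 500 bp of gene starts, 2.86% against 1.26% to 2.32% in the others, and the part of this in the late sites was not tested.

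Most of the C/EBPβ sites shared with C/EBPα were early and late sites. C/EBPβ was called at 14 of the 17 early and late sites, at 1 of 16 early sites, at 2 of 16 late sites and at 1 of the 2 at 3 hpi alone. In the genome the shares in the same classes were 77.4%, 17.4%, 36.8% and 20.2%. Averaged over the 16 early sites, C/EBPα had 1.97 scaled reads at 0 hpi, 23.0 at 30 min, 21.5 at 60 min, 8.20 at 3 hpi and 3.30 at 48 hpi, a course that their definition favours. The medians were lower, 11.5 at 30 min and 14.8 at 60 min. C/EBPα was highest at 30 min at 4 of these sites, at 60 min at 8, at 3 hpi at 2, at 12 hpi at 1 and at 48 hpi at 1. C/EBPβ, which did not enter that definition, stayed between 2.92 and 7.26 at these sites. At the early and late sites it went from 8.38 at 0 hpi to 64.3 at 48 hpi. Over the genome the C/EBPβ means at the early sites went from 3.058 at 0 hpi to 6.504 at 48 hpi. At the early and late sites of the genome they went from 6.93 at 0 hpi to 39.7 at 48 hpi. The contrast between these classes at the AP-1 loci thus had the direction of that in the genome, and the sizes of the contrasts were not compared by a test. Among the 18 sites with both C/EBP factors, C/EBPβ was highest at 48 hpi at 15 and at 24 hpi at 3. Of the 21 C/EBPβ sites 20 were called at 48 hpi, so the choice of sites largely fixes the time of these maxima. No genome share was computed for them.

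**Figure D2:**
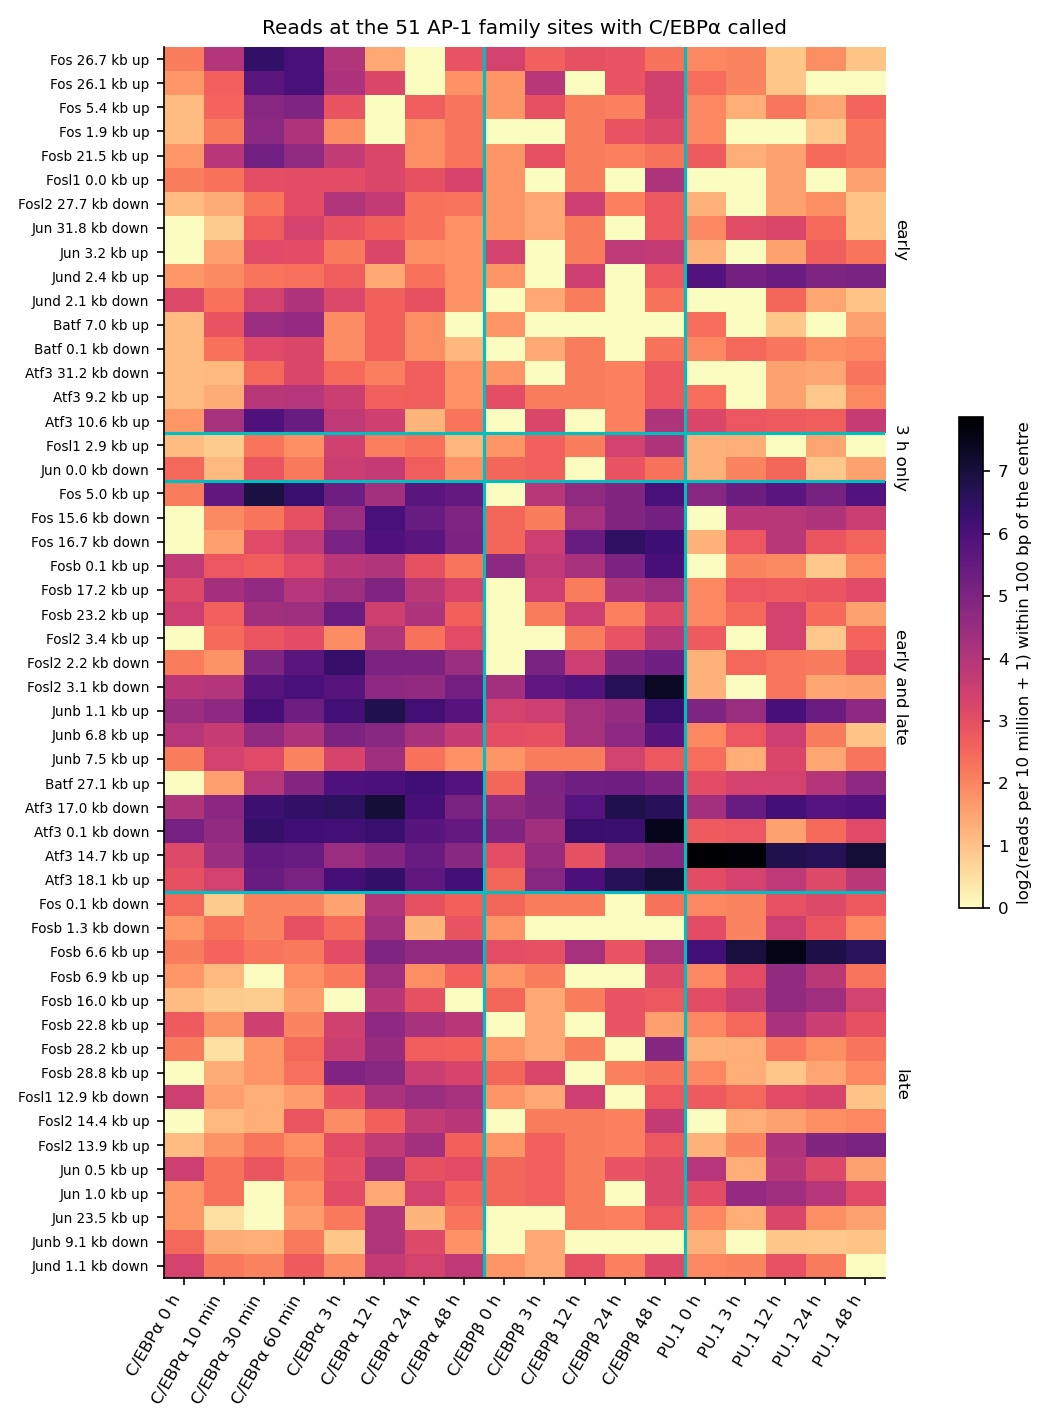
Scaled reads (colour, log2 of the value plus 1) at the 51 AP-1 family sites with C/EBPα called (rows, with their distance upstream or downstream of the gene start) in the 18 libraries (columns). The rows are grouped by the libraries in which C/EBPα was called, and most of the high C/EBPβ values are among the 17 early and late sites.

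Fos encodes the prototype AP-1 partner of Jun, and its locus (chr12:86784840-86848223) showed C/EBPα sites of contrasting timing. It had no C/EBPα site at 0 hpi and 5 at 30 min, and 8 over the whole course. Its gene lies on the plus strand at chr12:86814840-86818223, and no other protein-coding gene overlaps the locus. The site 26.7 kb upstream (chr12:86788052-86788281, intergenic) was called only from 10 min to 3 hpi. C/EBPα had 3.38, 14.8, 85.4, 64.0, 15.3, 1.67, 0 and 6.28 scaled reads there at 0 hpi, 10, 30 and 60 min, 3, 12, 24 and 48 hpi. The intervals at 30 min (70.2 to 103) and 60 min (53.3 to 76.2) overlapped each other and not that of any of the other 6 libraries. C/EBPβ at this site was between 3.94 and 9.34 and PU.1 between 0.933 and 3.04, and neither was called. Its neighbour 26.1 kb upstream, which has a C/EBP sequence (TTGCCCAA), followed a similar course, highest at 60 min, with 2.26, 5.22, 50.0, 64.5, 16.2, 8.37, 0 and 2.51. Both sites, and those 5.39 and 1.88 kb upstream that were also early, fall outside the naming rule and were chosen after their values were seen.

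The site 4.97 kb upstream of Fos (chr12:86809642-86809975, intergenic) had the most C/EBPα reads of the locus. C/EBPα had 3.38, 47.0, 122, 81.4, 38.6, 18.4, 50.1 and 45.2 scaled reads over the 8 libraries, with a maximum at 30 min (95% interval 104 to 143). The intervals at 12 hpi (9.20 to 33.0) and 48 hpi (31.7 to 62.6) overlapped, and within 200 bp of the centre, at a merged span of 334 bp, the 12 hpi value was 40.2 and the 48 hpi value 66.6. C/EBPβ had 0, 13.7, 24.1, 28.8 and 65.0 at 0, 3, 12, 24 and 48 hpi, at least 9.28-fold higher at 48 hpi against a floor of 3 reads in the 0 hpi library. PU.1 had 26.9, 39.5, 51.3, 33.5 and 56.4 and was called in all 5 libraries. Here PU.1 was called in pre-B cells, C/EBPα was strongest within the first hour, and C/EBPβ was highest at the end.

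Downstream of Fos a pair of sites had no C/EBPα read in pre-B cells, C/EBPα calls from 60 min on and their highest values at 12 hpi. The site 16.7 kb downstream (chr12:86831417-86831667, intergenic) had 0, 2.01, 7.69, 12.3, 33.2, 60.3, 51.4 and 31.4 C/EBPα scaled reads, at least 9.29-fold higher at 48 than at 0 hpi, where no read was found and 3 reads were taken as the floor. Its C/EBPβ values were 4.67, 10.3, 41.3, 89.6 and 74.9, and its PU.1 values were 1.42, 6.08, 14.0, 6.17 and 4.78, called at 12 hpi only. The site 15.6 kb downstream had 0, 2.81, 3.85, 6.65, 20.7, 65.3, 42.2 and 30.2 for C/EBPα and 4.67, 3.42, 17.2, 28.8 and 35.5 for C/EBPβ, and its PU.1 values were 0, 13.7, 14.0, 15.9 and 10.5, called from 3 hpi on. At 30 min the downstream pair had 3.85 and 7.69 C/EBPα scaled reads, while the site 4.97 kb upstream had 122. Both downstream sites were singled out after their values were seen.

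PU.1 also occupied Fos away from C/EBP. The site 10.9 kb upstream had 38.3, 56.3, 25.2, 20.3 and 10.5 PU.1 scaled reads and at most 3.44 of either C/EBP factor. It was 3.64-fold lower at 48 than at 0 hpi (log2 ratio -1.86, 95% interval -3.02 to -0.81) and was chosen after its values were seen. At the Fos promoter, 112 bp upstream of the start, PU.1 had 21.3, 30.4, 61.6, 30.0 and 27.7, with the intervals at 0 hpi (11.9 to 35.1) and 12 hpi (47.6 to 78.4) apart and those at 0 and 48 hpi (18.6 to 39.8) overlapping.

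**Figure D3:**
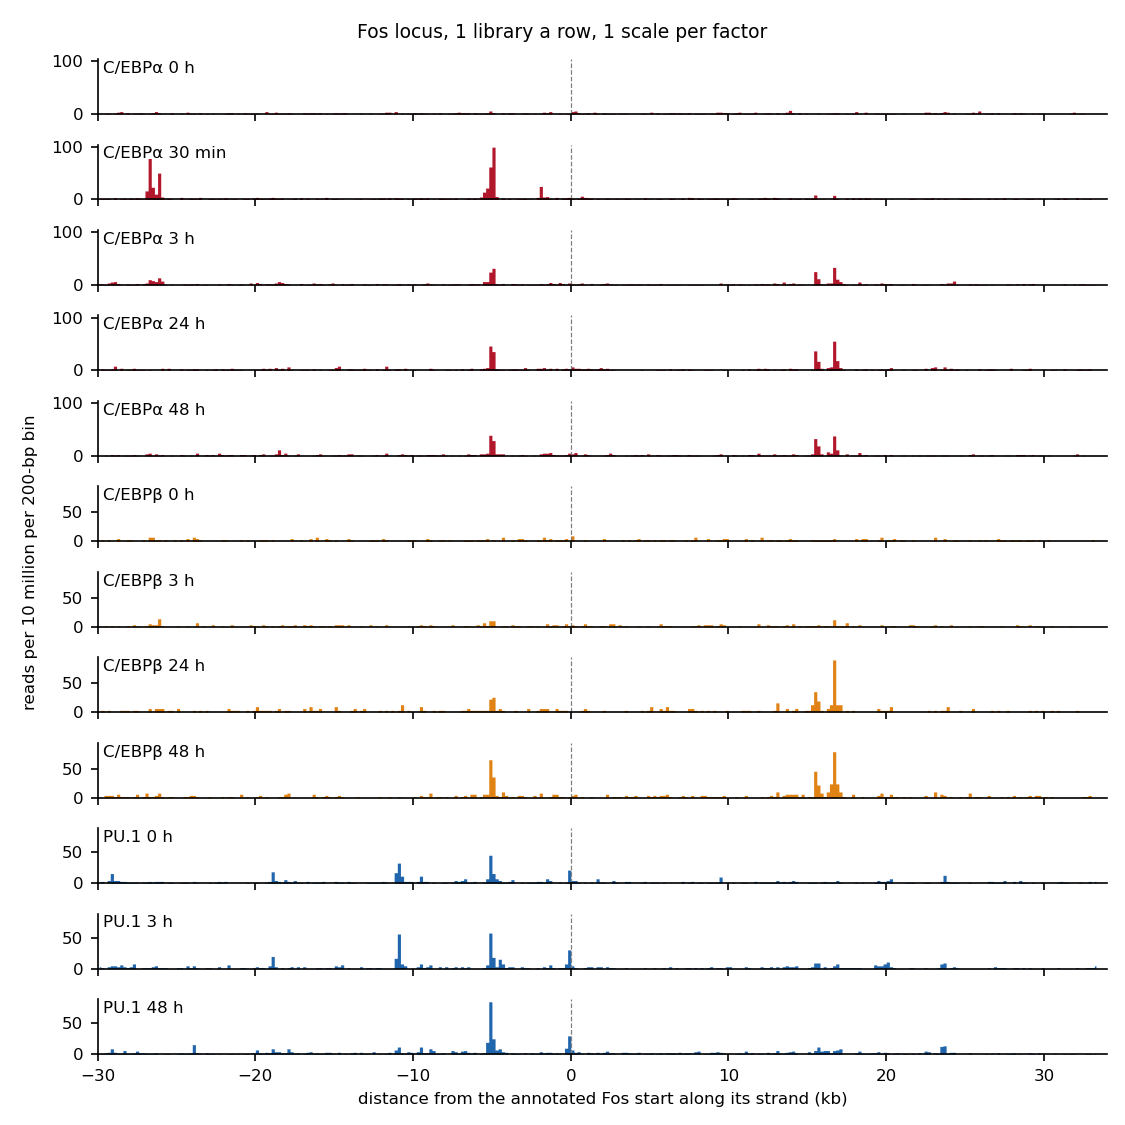
Reads per 10000000 in 200-bp bins along the Fos locus, plotted by distance from the Fos start (dashed line), for 12 of the 18 libraries, with 1 vertical scale for each factor. C/EBPα stood 26.7 and 4.97 kb upstream at 30 min, and 4.97 kb upstream and about the 15.6 and 16.7 kb downstream sites at 24 and 48 hpi, while PU.1 marked the upstream region and the start.

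Fosb and the Fos-related genes Fosl1 and Fosl2 encode the other Fos partners of Jun. Fosb and Fosl1 had no site with C/EBPα called in 6 or more libraries, and Fosl2 had 2. At Fosb (locus chr7:19858070-19925394, gene at chr7:19888070-19895394 on the minus strand), the site with the most PU.1 reads lay 6.64 kb upstream (chr7:19901749-19902137, intergenic). PU.1 had 70.9, 123, 181, 116 and 95.5 scaled reads there and was called at every time point. C/EBPα at the same site had 3.38, 4.82, 3.85, 3.58, 7.19, 30.1, 23.7 and 23.9 and was called from 3 hpi on (63.6 at 12 hpi within 200 bp of the centre), so that C/EBPα was called later than PU.1 at this site, with a log2 ratio of 48 over 0 hpi of 2.82 (95% interval 1.06 to 5.22) from 3 and 19 reads. The site with the most C/EBPα reads among those called for it lay 23.2 kb upstream, nearer to the start of Ercc1 than to that of Fosb. It had 10.1, 5.22, 19.2, 19.96, 40.4, 10.0, 15.8 and 5.03 with its maximum at 3 hpi. At the Fosb start itself, 117 bp upstream, C/EBPβ was called already at 0 hpi and had 25.7, 12.0, 17.2, 32 and 67.0, whereas C/EBPα had 12.4, 6.02, 5.38, 7.68, 13.5, 15.1, 6.59 and 3.77. C/EBPα there was 3.77 at 48 hpi and 12.4 at 0 hpi (log2 ratio -1.72, 95% interval -4.20 to 0.20), and C/EBPβ was 2.61-fold higher at 48 hpi (log2 ratio 1.38, 95% interval 0.37 to 2.51). The site 8.79 kb upstream, which holds GAGGAAGT, had 61.0, 76.0, 69.1, 46.7 and 72.6 PU.1 scaled reads and at most 5.91 of either C/EBP factor. These last sites were chosen after their values were seen.

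Fosl1 (chr19:5447703-5455945, plus strand) had the fewest sites of the Fos genes, with 3 C/EBPα sites, 2 C/EBPβ sites and 3 PU.1 sites in a locus shared with 8 other protein-coding genes. Its site with the most C/EBPα reads, 12.9 kb downstream, lay 59 bp from the start of the neighbouring gene Fibp, with 10.1, 2.01, 1.54, 2.05, 6.29, 16.7, 21.1 and 17.6 scaled reads. The strongest PU.1 site, 13.1 kb downstream, lay in an intron of Fibp and had 39.7, 82.1, 122, 89.0 and 76.4. The site 39 bp upstream of the Fosl1 start was called for C/EBPα at 30 and 60 min only, with 3.38, 4.01, 6.92, 7.17, 7.19, 8.37, 6.59 and 8.80, values whose intervals overlapped from the first library to the last.

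Fosl2 (chr5:32438845-32460204, plus strand) carried a pair of intronic C/EBP sites without PU.1. The site 2.19 kb downstream of the start (chr5:32440887-32441137) had 3.38, 2.41, 30.8, 50.7, 82.7, 31.8, 31.6 and 20.1 C/EBPα scaled reads, highest at 3 hpi (95% interval 66.6 to 101), and C/EBPβ there had 0, 32.5, 10.3, 28.8 and 37.4. The site 3.09 kb downstream (chr5:32441813-32442065) was called for both C/EBP factors in all of their libraries. It had 13.5, 14.8, 53.8, 64.5, 53.9, 25.1, 23.7 and 36.4 for C/EBPα and 18.7, 47.9, 58.5, 102 and 159.6 for C/EBPβ, the latter 8.54-fold higher at 48 hpi (log2 ratio 3.09, 95% interval 2.05 to 4.35). C/EBPα at this site was highest at 60 min, and C/EBPβ was higher in each later library than in the one before. PU.1 was at most 6.69 at either site, and each holds a C/EBP sequence, TTTTGCAA on the plus strand at the first and TTACGCAA at the second, both matches of TTGCNNAA on the minus strand. PU.1 was strongest 23.8 kb upstream, nearer to the start of Gm10463, with 19.9, 27.4, 61.6, 70.5 and 83.1, 4.19-fold higher at 48 hpi (log2 ratio 2.07, 95% interval 1.24 to 3.00), where no C/EBP factor was called.

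Among the Jun genes, Junb alone had C/EBPα in all 8 libraries, while at Jund 12 of the 14 sites had PU.1 and at Jun each C/EBPα site was called in a single library. The Jun locus (chr4:94685725-94748913) had 6 C/EBPα sites. Of these 2 were called at 60 min, 1 at 3 hpi, 2 at 12 hpi, 1 at 24 hpi and 0 at 48 hpi. The largest value, 535 bp upstream, came from the series 10.1, 4.01, 6.15, 3.58, 6.29, 18.4, 6.59 and 7.54, in which the 0 and 48 hpi intervals overlapped (4.64 to 19.3 and 2.77 to 16.4). PU.1 was strongest in the coding exon, 1.74 kb downstream, with 14.2, 41.1, 73.7, 52.0 and 32.5 scaled reads, and this site was 2.29-fold higher at 48 than at 0 hpi (log2 ratio 1.20, 95% interval 0.15 to 2.38).

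Junb (chr8:87500811-87502617, minus strand), whose product pairs with Fos proteins and often opposes Jun, was bound by all 3 factors 1.09 kb upstream of its start (chr8:87503552-87503934, intergenic). C/EBPα had 20.3, 25.3, 67.7, 38.9, 71.0, 111, 71.2 and 54.0 scaled reads, called in all 8 libraries and highest at 12 hpi (95% interval 85.5 to 141). C/EBPβ had 9.34, 10.3, 17.2, 22.4 and 80.8 and PU.1 31.2, 21.3, 66.3, 40.5 and 24.8. C/EBPα and PU.1 shared their maximum at 12 hpi, the most frequent time of the maximum at the AP-1 loci (21 of 51 C/EBPα and 43 of 82 PU.1 sites). At this Junb site the C/EBPα interval at 12 hpi overlapped those at 3 hpi (up to 88.5) and 24 hpi (up to 92.9). C/EBPβ was highest at 48 hpi (log2 ratio 3.11, 95% interval 1.65 to 5.06), and PU.1 at 0 and 48 hpi had overlapping intervals (19.6 to 47.2 and 16.2 to 36.4). None of the searched sequences lies within 75 bp of this centre. The site 6.80 kb upstream, nearer to the start of Hook2 (5077 bp), which holds TTTCGCAA, a minus-strand match of TTGCNNAA, had 14.7, 11.2, 23.1, 15.4, 31.4, 26.8, 17.1 and 11.3 for C/EBPα and 7, 6.84, 17.2, 25.6 and 53.2 for C/EBPβ, with at most 10.3 for PU.1. There the C/EBPα values at 0 and 48 hpi had overlapping intervals (log2 ratio -0.37, 95% interval -1.78 to 0.96), whereas C/EBPβ was 7.59-fold higher (log2 ratio 2.92, 95% interval 1.22 to 5.29). At the Junb promoter, 93 bp upstream, PU.1 had 44.0, 66.9, 101, 78.4 and 70.7 and C/EBPα at most 13.4.

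Jund (chr8:73221638-73224515, plus strand), whose product is made in many resting cell types, had 3 C/EBPα sites, no C/EBPβ site and 12 PU.1 sites. The largest C/EBPα value came from its coding exon, which overlaps Gm11175, with 7.89, 4.01, 9.23, 15.4, 8.09, 5.02, 6.59 and 2.51 scaled reads and the highest value at 60 min. PU.1 was strongest 14.8 kb upstream, nearer to the start of Lsm4, with 41.1, 50.2, 92.4, 40.5 and 35.4, and the values at 0 and 48 hpi had overlapping intervals (27.5 to 59.1 and 24.9 to 48.7). That site holds TGAGTCA, and at most 8.37 C/EBPα scaled reads were found there.

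Batf (chr12:87027619-87050037, plus strand) had 1 site with both C/EBP factors, 27.1 kb upstream (chr12:87000341-87000663, intergenic). C/EBPα had 0, 2.01, 14.6, 28.1, 59.3, 62.0, 72.5 and 55.3 scaled reads, with none at 0 hpi, first called at 30 min and highest at 24 hpi (95% interval 54.6 to 94.4). At 48 hpi it was at least 16.3-fold higher than the floor of 3 reads in the 0 hpi library. C/EBPβ had 4.67, 30.8, 37.9, 38.4 and 31.5 and was already called at 3 hpi, and PU.1 had 7.09, 9.12, 9.33, 15.0 and 24.8 and was called from 12 hpi on. C/EBPα was thus called in earlier libraries than PU.1 at this site, although the PU.1 values at 0, 3 and 12 hpi had overlapping intervals with those at 24 hpi. The site holds the composite element TGATGCAA (printed above on the plus strand as TTGCATCA) and a C/EBP sequence (TTGCATAA). It also lies within 30 kb of Jdp2, another bZIP gene. PU.1 was strongest 24.2 kb downstream of the start, with 140.4, 109.5, 112, 105 and 88.9, 1.58-fold lower at 48 hpi (log2 ratio -0.66, 95% interval -1.08 to -0.24), and was 70.9, 54.8, 86.8, 75.8 and 69.8 in the intron 18.8 kb downstream, where GAGGAAGT was found, with no C/EBP factor called at either.

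Atf3 (chr1:192994175-193007219, minus strand) had 4 of its 7 C/EBPα sites called in at least 6 libraries, more than any other member. At the gene start, 51 bp downstream (chr1:193007043-193007293, in the transcribed leader), C/EBPα had 35.0, 23.3, 84.6, 73.2, 71.0, 80.4, 52.7 and 45.2 scaled reads and was called in all 8 libraries. C/EBPβ had 30.4, 18.8, 79.2, 76.8 and 179, the largest C/EBPβ value at any AP-1 site at 48 hpi (95% interval 144 to 220.1). The values at 0 and 48 hpi overlapped for C/EBPα (log2 ratio 0.37, 95% interval -0.36 to 1.11) and did not for C/EBPβ (log2 ratio 2.56, 95% interval 1.72 to 3.53), and PU.1 stayed at or below 7.64. The composite element TGATGCAA lies 67 to 74 bp after the start.

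The site 17.0 kb downstream of the Atf3 start (chr1:192990107-192990369, intergenic, 1566 bp from the start of Fam71a) was called for all 3 factors in all libraries. C/EBPα had 15.8, 26.1, 75.4, 85.5, 93.4, 132, 65.9 and 32.7, C/EBPβ 23.3, 29.1, 55.1, 112 and 98.5 and PU.1 18.4, 42.6, 69.1, 54.6 and 59.2 scaled reads. C/EBPα was highest at 12 hpi (105 to 165) and lower again at 48 hpi (21.3 to 47.9), and C/EBPβ and PU.1 were 4.22-fold and 3.21-fold higher at 48 than at 0 hpi. It holds the palindromic C/EBP sequence TTGCGCAA.

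Upstream of Atf3, the site 14.7 kb from the start had the most PU.1 reads of all AP-1 sites, 234, 217, 110.1, 101 and 137, lower at 48 than at 0 hpi by 1.71-fold (log2 ratio -0.78, 95% interval -1.11 to -0.44), and C/EBPα there had 7.89, 20.5, 45.4, 42.0, 20.7, 28.5, 42.2 and 26.4. The site 18.1 kb upstream (chr1:193025170-193025406), with both a composite and a C/EBP sequence, had 6.77, 9.23, 41.5, 32.2, 70.1, 87.1, 47.5 and 70.4 for C/EBPα and 4.67, 27.4, 62.0, 102 and 136 for C/EBPβ, 29.1-fold higher at 48 hpi from 2 and 69 reads (log2 ratio 4.86, 95% interval 2.96 to 7.94), with PU.1 between 7.09 and 13.4. Within 200 bp of its centre C/EBPβ had 11.7 at 0 hpi and 162 at 48 hpi, a smaller ratio. Next to these, the site 10.6 kb upstream was early, with 2.26, 17.7, 60.0, 42.5, 12.6, 10.0, 1.32 and 3.77 and a maximum at 30 min, and was chosen after its values were seen.

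**Figure D4:**
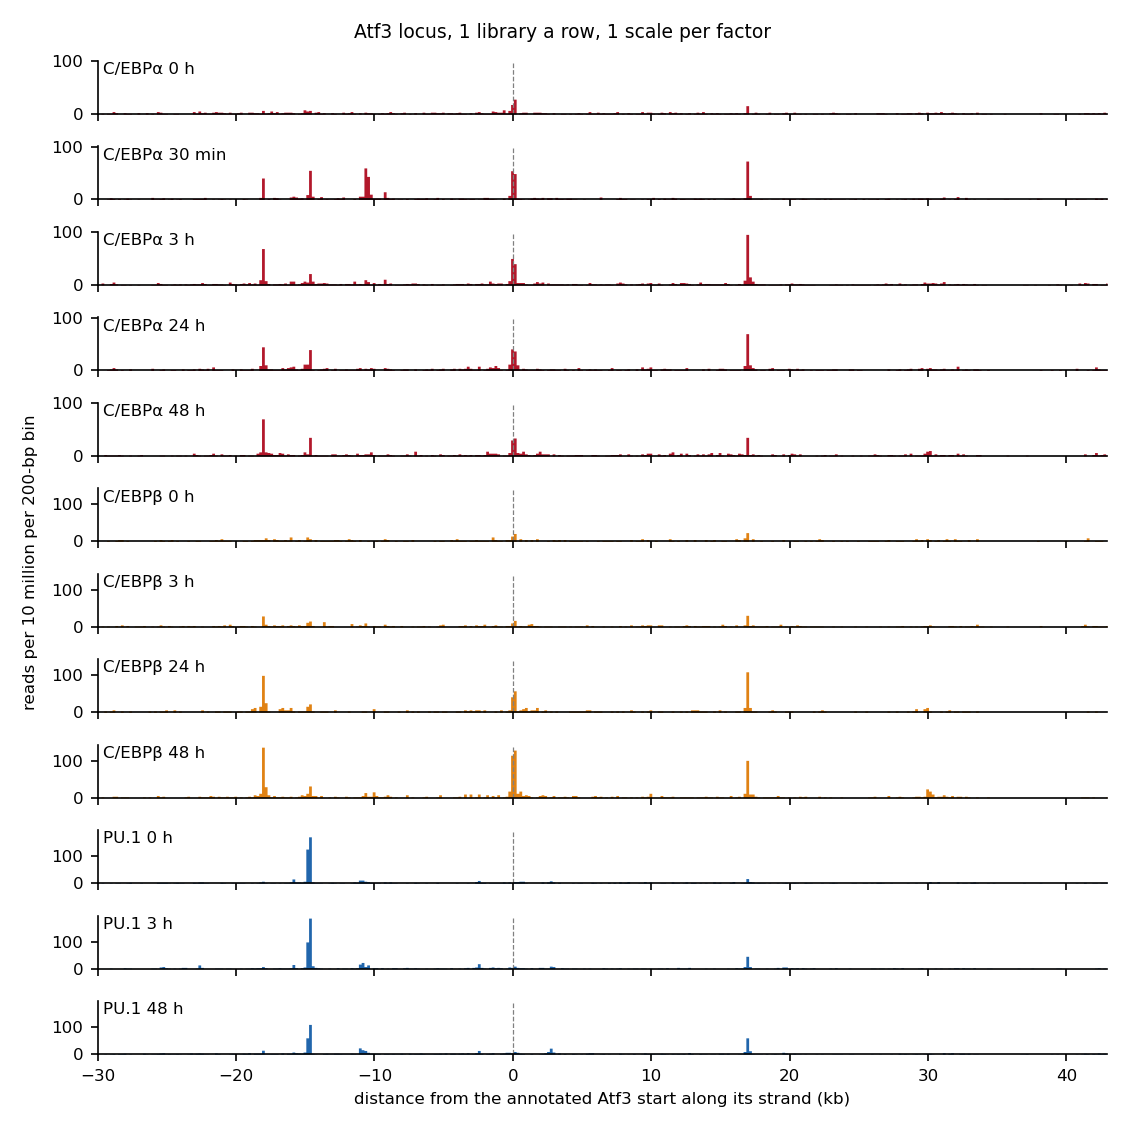
Reads per 10000000 in 200-bp bins along the Atf3 locus, plotted by distance from the Atf3 start along its strand (dashed line), for 12 of the 18 libraries, with 1 vertical scale for each factor. C/EBPα and C/EBPβ shared the start and the sites 18.1 kb upstream and 17.0 kb downstream, the C/EBPα site 10.6 kb upstream stood at 30 min, and PU.1 was highest 14.7 kb upstream at 0 and 3 hpi.

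The 1000 bp centred on each gene start separated the members by factor. For C/EBPα the Atf3 start had 53.0, 37.3, 115, 98.8, 103, 131, 101 and 77.9 scaled reads in the 8 libraries, and no other member exceeded 45.2 in any of them. For C/EBPβ the Atf3 start had 44.4, 34.2, 121, 115 and 274 and the Fosb start 35.0, 15.4, 37.9, 51.2 and 100.5, and in both the 48 hpi interval (230.2 to 323 and 74.8 to 132) lay above that of 0 hpi (26.7 to 69.3 and 19.6 to 57.8). The C/EBPβ library of 48 hpi had the largest share of reads near gene starts of the genome for its factor, 2.07% against 1.37% to 1.59%. The part of this share in the 48 hpi values was not tested. PU.1 was highest at the Junb start, with 53.9, 88.2, 131, 99.6 and 83.1, and at the Fos start, with 32.6, 45.6, 99.9, 59.9 and 49.7, and was highest at 12 hpi in both. The PU.1 library of 12 hpi also had the largest share of reads near gene starts of the genome, 4.26% against 2.47% to 3.17%, and the part of this in the 12 hpi maxima was not tested. The starts of Batf and Jund had at most 22.9 and 16.3 scaled reads for any factor.

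**Figure D5:**
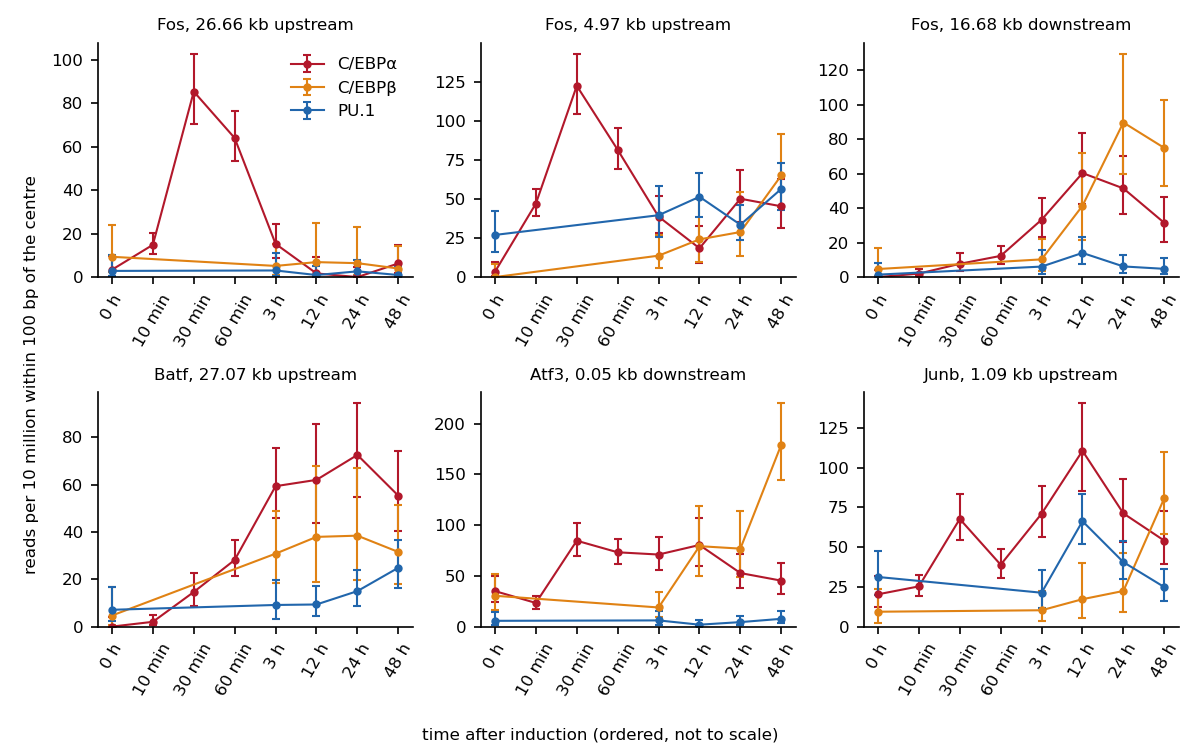
Scaled reads within 100 bp of the centre over time (ordered, not to scale) at 6 AP-1 family sites, for C/EBPα (red), C/EBPβ (orange) and PU.1 (blue), with exact Poisson 95% intervals from 1 library per point. C/EBPα was highest at 30 min at both upstream Fos sites and the Atf3 start, at 12 hpi at Fos 16.7 kb downstream and Junb and at 24 hpi at Batf, and C/EBPβ was highest at 48 hpi at Fos 4.97 kb upstream, Atf3 and Junb. Several C/EBPα maxima were not apart from other times. Intervals overlapped between 30 min (84.6) and 12 hpi (80.4) at the Atf3 start, and between 12 and 24 hpi at Fos 16.7 kb downstream and Batf.

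PU.1 sites of pre-B cells lay near 16 of the C/EBPα sites, a share close to that of the genome. Of the 51 C/EBPα sites 16 (31.4%, 95% interval 19.1 to 45.9) lay within 1000 bp of a PU.1 site called at 0 hpi, and in the genome the share was 31.0%. With a read threshold 1.5 times higher the count was 8, and the genome share was not computed at that threshold. By class these were 2 of 16 early sites (12.5%), 7 of 17 early and late sites (41.2%) and 6 of 16 late sites (37.5%), beside 26.2%, 44.8% and 34.8% in the genome, and the intervals of the first (1.55 to 38.3) and second (18.4 to 67.1) overlapped. PU.1 was called within 1000 bp at some time for 31 of the 51 (60.8%, 95% interval 46.1 to 74.2), beside 54.8% in the genome.

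The C/EBP sequence was found at a larger share of the C/EBPβ than of the C/EBPα sites, as in the genome. The 2 sets have 18 sites in common, so their overlapping intervals do not compare them. TTGCNNAA lay within 75 bp of the centre of 14 of 51 C/EBPα sites (27.5%, 95% interval 15.9 to 41.7) and 10 of 21 C/EBPβ sites (47.6%, 25.7 to 70.2), beside 29.1% and 38.8% in the genome. GAGGAAGT lay at 10 of 82 PU.1 sites (12.2%, 6.01 to 21.3), beside 22.0% in the genome, and at 0 of the 51 C/EBPα sites, which allows a share of up to 6.98%, beside 6.28%. TGAGTCA, the binding sequence of AP-1 itself, lay at 3 of 51 C/EBPα sites and 2 of 82 PU.1 sites, beside 5.41% and 6.16%. The composite TGATGCAA, added after the data had been seen, lay at 4 of 51 C/EBPα sites (7.84%, 2.18 to 18.9), beside 3.53% in the genome. The 4 were all early and late (4 of 17, 23.5%, 6.81 to 49.9). In the genome it lay at 4.61% of the early and late, 3.30% of the early and 1.65% of the late sites. Because the sequence was added with these sites known, its shares and intervals are descriptions and test nothing. The 4 sites were Batf 27.1 kb upstream, Atf3 18.1 kb upstream, the Atf3 start, and Fosl2 3.42 kb upstream at the start of Gm10463. At 17 of the 119 sites the merged span exceeded 300 bp, and a sequence near another library's maximum can lie outside the window there.

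The relatives Batf2, Batf3, Jdp2, Atf2 and Atf7, bZIP genes whose products pair with Jun or Fos proteins, were called for C/EBPα at 2, 4, 4, 4, 4, 5, 4 and 3 of 5 loci over the 8 libraries and for PU.1 at all 5 throughout. For C/EBPβ they were called at 0, 4, 2, 4 and 4 of 5 loci. Atf2 had no C/EBPβ site in any library and C/EBPα only at 12 hpi. The Jdp2 and Batf loci overlap, so sites were shared between them. At 48 hpi 8 of 9 AP-1 loci and 3 of 5 relatives thus had a C/EBPα site, beside the 34.8% of all loci. The only C/EBPα site of Jdp2 at 48 hpi was the one 27.1 kb upstream of Batf, so that site counts in both lists.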

How the data were processed

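The 18 ChIP-seq libraries, 8 of C/EBPα, 5 of PU.1 and 5 of C/EBPβ, were grouped by the sample labels, each group holding 1 library. The authors aligned reads to mm9 with ELAND or Bowtie, kept unique matches and deposited read positions rather than counts, and which aligner made which library is not given in the sources used here. From these positions, with Python 3.11.15, numpy 2.4.6, scipy 1.17.1, pandas 2.3.3 and numba 0.67.0 (figures with matplotlib 3.10.9), 1 read per position and strand was kept and moved 75 bp inward. Sites were called in each library in 200-bp windows with a genome-wide Poisson p up to 1e-07 over 2000000000 bp and whose reads exceeded those of the surrounding 10 kb by 4-fold at a Poisson p no higher than 0.0001, with maxima at least 400 bp apart. Windows overlapping by 1 bp were merged over the 18 libraries, and the merged centre was that of the call with the most reads for its library's depth. The caller was tested on simulated data. Without replicates no test between libraries was made, and alternatives are given in the closing section. Named sites were, for each gene, those with the most C/EBPα and the most PU.1 reads, the 1000 bp at the start, and sites with C/EBPα called in 6 or more libraries. The genes and lists were chosen with earlier results of these data known. The counts for a list of genes acting on AP-1 are not reported here.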

Additional observations from a re-analysis of the deposited data

How the results depend on the processing

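No paired analysis was possible because each factor and time point had 1 library. With a read threshold 1.5 times higher, the AP-1 loci had 2 C/EBPα sites at 0 hpi (6 in the report) at 2 loci (4), 1 C/EBPβ site at 0 hpi (5), 23 PU.1 sites at 0 hpi (35) and 28 at 48 hpi (43), 8 C/EBPα sites near a PU.1 site of 0 hpi (16) and 6 late C/EBPα sites (16). With libraries thinned to the smallest of a factor there were 3 C/EBPβ sites at 0 hpi and 9 early sites (16). With 10 kb either side of the genes there were 9 C/EBPα sites (15), 11 C/EBPβ sites (20) and 20 PU.1 sites at 48 hpi and 20 PU.1 sites at 0 hpi, with 10 early, 10 early and late (17) and 9 late sites, and the summed C/EBPα log2 ratio was 0.95 (1.42). With 100 kb there were 11 C/EBPα sites at 0 hpi and 31 at 48 hpi, 52 C/EBPβ sites at 48 hpi, 92 PU.1 sites at 0 hpi and 124 at 48 hpi, 48 C/EBPα sites near PU.1, and 52 early, 32 early and late and 44 late sites. Without the C/EBPα library of 12 hpi 7 late sites were left. Asking for calls in 2 or more C/EBPα libraries left 10 early and 5 late sites. The class and composite-sequence alternatives were chosen after seeing the data. No direction reversed among these alternatives, and the other 94 alternative values of counts, shares and summed ratios moved by less than 1.5 times or their counting interval. The same held for all 116 alternative values of the C/EBPα and PU.1 log2 ratios of 48 over 0 hpi at named sites. C/EBPβ ratios at single sites, and ratios at sites outside the naming rule, were not put through these alternatives. Levels of single libraries moved further at wide sites. The main limits are single libraries, unequal depth, the absence of a control library here, and merged spans over 300 bp at 17 sites, where the window can miss a library's own maximum.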
